A study of Mus musculus with 72 samples.

Results

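The genes described here encode the constitutive proteasome and its activators and assembly factors. They were taken as all genes whose symbols begin with Psma, Psmb, Psmc, Psmd, Psme or Psmg and a digit, without the immunoproteasome subunits Psmb8, Psmb9 and Psmb10. The rule found 48 of the 18472 genes in 3 deposited tables of mouse macrophage messenger RNA, and 46 of the 48 are protein-coding. The tables hold 72 libraries in 24 groups of 3, from 4 experiments.

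Cells of the line RAW264.7, a male BALB/c macrophage line, carried a heterozygous deletion of Setd1a (labelled Setd1aDel/+) or were wild type. In the first RAW264.7 experiment both genotypes received 1 uM of the glucocorticoid dexamethasone (Dex) for 16 h with LPS for the last 6 h, LPS at 100 ng/ml for 6 h after ethanol, or vehicle. In the second the Dex or ethanol exposure lasted 6 h and a group with Dex alone was added. In the third the cells received LPS with 10 ng/ml interferon beta (IFNB1), or LPS, for 6 h, and the labels name no ethanol there. Bone marrow-derived macrophages of C57BL/6J mice labelled Setd1bKO, and controls, received Dex with LPS, LPS or vehicle on the 16 h schedule. The LPS dose is that of the sample labels, whereas the treatment protocol writes ng/ul for most groups. The controls are titled wt but carry the genotype label Setd1bHet, so they are called control. The marrow cells matured over 7 days in medium with L929 growth factors and were treated without serum. Their labels give the sex as female where the growth protocol names male mice, and they do not say how Setd1b was removed or in which cells. The sources used here do not say whether the Setd1aDel line is a single clone. Each group has 3 biological replicates by its labels, with no word on separate animals or cultures, so p-values measure the spread between these libraries.

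The proteasome degrades proteins tagged with ubiquitin. Its barrel, the 20S core, stacks alpha rings (Psma genes) that gate the entrance around beta rings (Psmb genes) that carry the proteolytic sites. A 19S cap of ATPases (Psmc) and other base and lid subunits (Psmd) binds, unfolds and feeds in ubiquitin-tagged substrates, while PA28 caps (Psme1, Psme2) open the gate for peptides and are known as interferon-inducible. Psmg genes and some Psmd genes encode chaperones that build the particle and are not part of the finished one. In macrophages the proteasome supplies peptides for MHC class I molecules and degrades inhibitors of inflammatory signalling.

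Levels are in TPM, the share of transcripts each gene takes in a library, a scale set per transcript length, so levels of different genes may be compared. A log2 change is a difference of group means of log2(TPM + 1), which understates changes of low genes, and calls were made with limma at an adjusted p (Benjamini-Hochberg, over all genes tested in that experiment) under 0.05. Because TPM values are shares of a library, all genes can shift together. Under LPS the median gene had a log2 change of -0.37 in Setd1bKO and -0.49 in control marrow-derived cells, -0.41 in Setd1aDel and -0.38 in wild-type cells at 16 h, and -0.21 in Setd1aDel and -0.24 in wild-type cells at 6 h. Counts over all members are therefore given for TPM as deposited and again after median-of-ratios scaling, which sets the median gene to about 0. Of the members, 43 were tested in the marrow-derived cells, 44 in each RAW264.7 experiment with Dex and 45 in the IFNB1 experiment, and 42 in all of them. The 3 members that passed no filter were the thymus subunit Psmb11 (0 to 0.2 TPM) and the pseudogene entries Psma5-ps (0 to 0.1 TPM) and Psmb7-ps2 (0 to 0.5 TPM), all in the IFNB1 table.

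The labels were checked on the targeted genes. Setd1a averaged 24.7 ± 3.65 TPM in Setd1aDel cells and 39.0 ± 7.18 TPM in wild-type cells at 16 h in vehicle (SD, n = 3 each; log2 change -0.63, SE 0.146, adjusted p = 0.00226). Its log2 change was between -1.11 and -0.56 in the 16 h and IFNB1 experiments, all called, and between -0.62 and -0.38 at 6 h, where it missed the threshold in each treatment. Setd1b averaged 10.1 ± 0.359 TPM in the vehicle libraries labelled Setd1bKO and 4.54 ± 0.681 TPM in control libraries, so it was not lower there; a value per gene does not show which exons were deleted. The tissue label was met by 10 of 10 macrophage markers at 1 TPM or more in every group. In these bulk samples fewer cells of a type and less RNA per cell cannot be told apart.

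The promoters of 4 members are shown: the PA28 pair Psme1 and Psme2, which is described in most comparisons, the alpha-ring gene Psma5, which was called in all LPS and all Dex with LPS comparisons, and the assembly chaperone Psmg4, whose promoter holds the same interferon element core as Psme1. Each run holds the 250 bases before and the first 50 bases after the start of transcription, 5′ to 3′ on the gene's own strand, from RefSeq on GRCm38.p6. Capitals mark matches to 6 motifs searched on both strands.
Psme1, chr14:55578244-55578543 (+ strand): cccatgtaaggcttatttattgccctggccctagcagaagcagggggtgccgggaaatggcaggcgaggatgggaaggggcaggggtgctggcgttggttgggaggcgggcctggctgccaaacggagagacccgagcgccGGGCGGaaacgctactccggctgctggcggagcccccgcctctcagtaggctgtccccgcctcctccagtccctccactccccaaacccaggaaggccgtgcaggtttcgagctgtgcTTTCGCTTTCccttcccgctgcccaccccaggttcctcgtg
Psme2, chr14:55591052-55591351 (- strand): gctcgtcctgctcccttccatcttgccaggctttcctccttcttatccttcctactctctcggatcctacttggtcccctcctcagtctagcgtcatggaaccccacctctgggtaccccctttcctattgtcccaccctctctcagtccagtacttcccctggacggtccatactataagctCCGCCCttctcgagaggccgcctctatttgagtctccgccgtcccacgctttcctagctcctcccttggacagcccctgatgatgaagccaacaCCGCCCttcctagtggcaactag
Psma5, chr3:108256676-108256975 (+ strand): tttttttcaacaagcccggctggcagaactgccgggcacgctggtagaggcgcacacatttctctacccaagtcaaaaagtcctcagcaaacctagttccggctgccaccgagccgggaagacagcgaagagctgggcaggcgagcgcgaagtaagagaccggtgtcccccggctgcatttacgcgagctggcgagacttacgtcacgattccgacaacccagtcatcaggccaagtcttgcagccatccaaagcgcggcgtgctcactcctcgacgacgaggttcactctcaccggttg
Psmg4, chr13:34162714-34163013 (+ strand): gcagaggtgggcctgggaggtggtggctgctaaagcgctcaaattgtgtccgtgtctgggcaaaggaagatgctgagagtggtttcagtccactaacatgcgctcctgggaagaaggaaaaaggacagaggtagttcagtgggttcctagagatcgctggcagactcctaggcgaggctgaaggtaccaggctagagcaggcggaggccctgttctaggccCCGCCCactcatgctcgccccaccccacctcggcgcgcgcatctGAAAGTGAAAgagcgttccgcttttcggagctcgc
The Psme1 run holds the core of an interferon-stimulated response element (ISRE), written as GAAA, then NN, then GAAA, with its first base at position 10 counted from the start, and a GC box (GGGCGG) at -109. The Psmg4 run holds an ISRE core at 16 and a GC box at -29. The Psme2 run holds GC boxes at -67 and 28 and no ISRE core, and the Psma5 run holds none of the 6 motifs. Psme2 has another listed start of transcription, not shown, whose run holds GC boxes at -147 and -53 and no ISRE core. No match in these runs overlapped another.

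Of the 48 members 38 had a promoter entry, and 5 of the 38 (13.2%) held the ISRE core: Psmb3, Psmd4, Psmd9, Psme1 and Psmg4. The same letters occurred in the promoters of 3.99% of all 27025 genes with an entry, and in 3.44% of all 32851 promoters of this length. The shares below are of genes. The GAS core TTCNNNGAA occurred in 2 members, Psmd2 and Psmg1 (5.26%, against 9.55% of all genes), the core of the antioxidant response element TGACNNNGC in 6 members (15.8%, against 14.0%), CCAAT in 14 (36.8%, against 41.1%) and the GC box in 22 (57.9%, against 38.2%). The NF-kB letters, GGGA, then N, then TTTCC, occurred in no member and in 0.466% of all genes. In Psmd9 an antioxidant core and a GC box overlapped. A match is only a description of letters in this window. Psma5-ps, Psma8, Psmb1, Psmb2, Psmb7, Psmb7-ps2, Psmc3, Psmd3, Psmd7 and Psmg2 had no entry.

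In control marrow-derived macrophages in vehicle the subunits of the 20S core stood above the ATPases, and the ATPases above the chaperones of the core. The 7 alpha subunits had mean levels of 94.1 to 165 TPM, the 7 beta subunits of 97.8 to 242 TPM, the 6 ATPases of 53.3 to 80.8 TPM and the 4 chaperones of the 20S core of 8.46 to 27.1 TPM. The lid subunit Psmd8 stood above them all at 363 ± 19.8 TPM, followed by the caspase-like beta subunit Psmb6 at 242 ± 3.01 TPM. Psma3 at 165 ± 11.3 TPM and Psme2 at 161 ± 3.96 TPM came next and did not differ beyond their spread. In wild-type RAW264.7 cells in vehicle at 6 h the alpha subunit Psma5 was the highest at 331 ± 10.5 TPM, followed by the beta subunit Psmb4 at 293 ± 7.13 TPM, and the nuclear activator Psme4 (PA200) was the lowest at 13.4 ± 1.03 TPM. Psma8, known as the alpha subunit of the testis, was listed only for RAW264.7 cells, at 17.9 ± 1.60 TPM in that group.

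**Figure D1:**
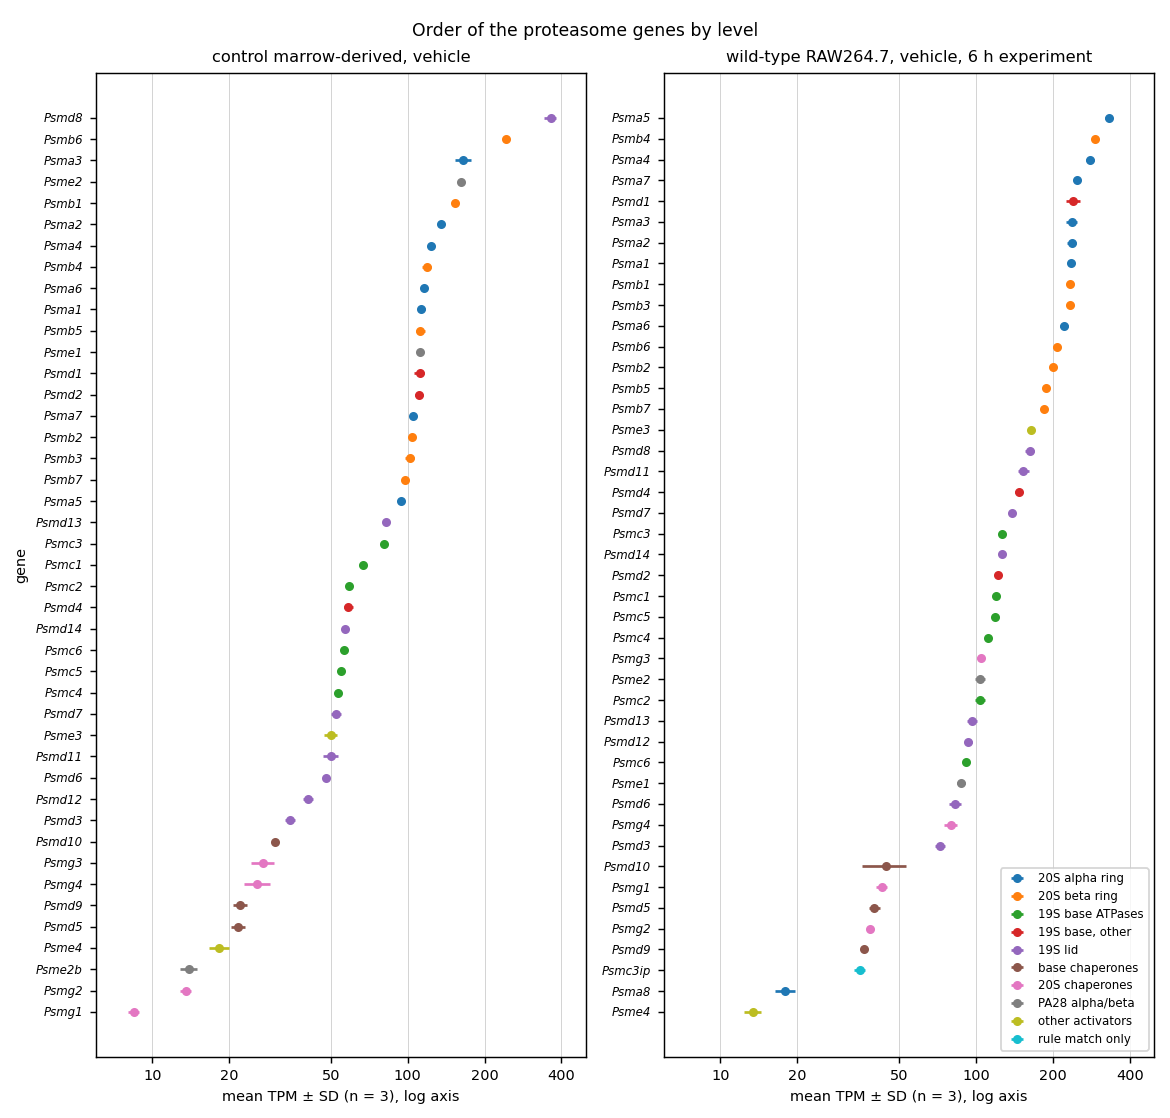
Mean TPM (log axis) of each member in vehicle, in control marrow-derived macrophages (left) and wild-type RAW264.7 cells of the 6 h experiment (right), ordered by level, with points at the mean of 3 libraries, bars for the SD and colours for the role. Psmg1 sits lowest in the marrow-derived cells at 8.46 TPM and Psmd8 highest at 363 TPM, and Psme4 is lowest in RAW264.7 cells at 13.4 TPM.

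Summed over the members, TPM was higher under LPS than in vehicle in each experiment that held both. The sum averaged 5489.97 ± 38.0 TPM under LPS and 3665 ± 31.6 TPM in vehicle in control marrow-derived macrophages, 8463 ± 77.6 TPM under LPS and 7293 ± 18.3 TPM in vehicle in wild-type cells at 16 h, and 7937 ± 59.8 TPM under LPS and 6250.2 ± 105 TPM in vehicle in wild-type cells at 6 h (SD, n = 3 each). The sums are descriptions of a few abundant members as much as of the family, and they carry no test. The calls gene by gene follow by role.

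Under LPS, control marrow-derived macrophages had higher levels of the PA28 pair, most alpha and lid subunits and Psmd10, and lower levels of the chaperones of the 20S core. In the libraries labelled Setd1bKO 29 of 43 members rose and 10 fell (all genes 24.9% and 58.2%; with scaling 36 rose and 5 fell, all genes 39.2% and 39.7%). In the control libraries 25 of 43 rose and 14 fell, where 20.6% of all genes rose and 64.7% fell, and 38 of the 43 lay above the median gene there. With scaling 35 rose and 2 fell, where 38.9% of all genes rose and 38.9% fell, so most falls were no larger than the shift of the median gene. The median member in control libraries had a log2 change of 0.16 as deposited and 0.69 with scaling. In Setd1aDel RAW264.7 cells 27 of 44 members rose and 13 fell at 16 h (all genes 18.4% and 66.4%; with scaling 34 rose and 2 fell, all genes 40.6% and 39.8%), and 24 rose and 7 fell at 6 h (all genes 20.4% and 49.2%; with scaling 36 rose and 3 fell, all genes 33.0% and 33.3%). In wild-type RAW264.7 cells 24 of 44 members rose and 13 fell at 16 h (all genes 17.4% and 66.1%; with scaling 36 rose and 4 fell, all genes 38.8% and 38.2%), and 28 rose and 7 fell at 6 h (all genes 19.5% and 52.3%; with scaling 36 rose and 3 fell, all genes 34.2% and 33.8%).

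The alpha ring held the largest rise of any core subunit. Psma6, an alpha subunit of the gate ring, had 456, 459 and 445 TPM under LPS and 118, 117 and 114 TPM in vehicle in control marrow-derived cells (log2 change 1.95, SE 0.0468, adjusted p = 1.66e-15). All LPS libraries lay far above all vehicle libraries. Psma6 in wild-type RAW264.7 cells had 545, 555 and 512 TPM under LPS and 243, 257 and 258 TPM in vehicle at 16 h (log2 change 1.09, SE 0.0402, adjusted p = 5.59e-13). At 6 h it had 426, 414 and 440.4 TPM under LPS and 214, 223 and 228 TPM in vehicle (log2 change 0.94, SE 0.0505, adjusted p = 1.65e-12). No LPS library overlapped a vehicle library in any of the 3 experiments.

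Psma5 was next among the alpha subunits in the marrow-derived cells, with 243, 244 and 238 TPM under LPS and 93.6, 96.8 and 91.9 TPM in vehicle in control cells (log2 change 1.35, SE 0.045, adjusted p = 1.03e-13). In wild-type RAW264.7 cells, where it was the highest member in vehicle, it had 510.3, 522 and 479.8 TPM under LPS and 384, 416 and 423 TPM in vehicle at 16 h (log2 change 0.31, SE 0.0407, adjusted p = 3.7e-06). The change at 6 h was larger, with a log2 change of 0.60. Of the whole alpha ring 5 of 7 members rose and 1 fell in control marrow-derived cells, 4 of 8 rose and 2 fell in wild-type cells at 16 h, and 6 of 8 rose and 1 fell at 6 h. With scaling no alpha member fell in the first pair of comparisons and 1 fell at 6 h, while 7 of 7, 8 of 8 and 7 of 8 rose.

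The beta ring moved less. Psmb6, the caspase-like subunit that Psmb9 replaces in the immunoproteasome, had 419.6, 421 and 437 TPM under LPS and 244, 239 and 244 TPM in vehicle in control marrow-derived cells (log2 change 0.81, SE 0.0306, adjusted p = 4.95e-13). Its groups did not overlap there. Its log2 change was 0.18 at 16 h and 0.31 at 6 h in wild-type RAW264.7 cells, both called. The beta members rose in 4 of 7 and fell in 2 of 7 cases in control marrow-derived cells, rose in 3 and fell in 1 at 16 h, and rose in 4 and fell in none at 6 h; with scaling 7 of 7 rose in each.

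The ATPases of the base, which unfold substrates, changed modestly: 4 of 6 rose and 2 fell in control marrow-derived cells (median log2 change 0.16), 5 rose and 1 fell in wild-type cells at 16 h, and 4 rose and none fell at 6 h. With scaling 6 of 6 rose in each of these comparisons. Among the lid subunits, 6 of 8 rose and 2 fell in control marrow-derived cells as deposited. In wild-type cells 7 rose and 1 fell at 16 h, and 7 rose and none fell at 6 h. With scaling Psmd3, Psmd6, Psmd7, Psmd11, Psmd12, Psmd13 and Psmd14 rose in each of these comparisons. Psmd8 was then not called in control marrow-derived cells. The shares of all genes that rose and fell in these comparisons are given above.

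Psmd11, a lid subunit that clamps the lid to the core, had 78.6, 85.3 and 82.4 TPM under LPS and 53.4, 47.3 and 49.2 TPM in vehicle in control marrow-derived cells (log2 change 0.71, SE 0.0677, adjusted p = 6.69e-08). The groups did not overlap, and its log2 change was 0.41 at 16 h and 0.56 at 6 h in wild-type RAW264.7 cells, both called. Psmd3, another lid subunit, had 108, 111 and 112 TPM under LPS and 69.0, 73.8 and 75.1 TPM in vehicle in wild-type cells at 6 h (log2 change 0.60, SE 0.0554, adjusted p = 8.71e-09). All its LPS libraries were the higher ones.

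Psmd8, a lid subunit known from yeast to join the lid last, moved in opposite directions in marrow-derived macrophages and in RAW264.7 cells as deposited. In control marrow-derived cells it had 239.8, 246 and 237 TPM under LPS and 341, 368 and 379.5 TPM in vehicle (log2 change -0.59, SE 0.0441, adjusted p = 3.05e-09), so that all LPS libraries were lower; with scaling the log2 change was -0.05 and was not called. In wild-type RAW264.7 cells at 16 h it had 386, 392 and 369 TPM under LPS and 167, 176 and 180.4 TPM in vehicle (log2 change 1.13, SE 0.0341, adjusted p = 4.49e-14). At 6 h it had 287, 287 and 293 TPM under LPS and 155, 165 and 167 TPM in vehicle (log2 change 0.83, SE 0.0458, adjusted p = 2.81e-12). Every RAW264.7 library under LPS was above every vehicle library. The cell types stand in separately normalized tables, and the difference between them was not tested.

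The chaperones of base assembly did not move as a group. Psmd10 (gankyrin) rose in all 6 LPS comparisons and in wild-type cells at 16 h had 84.5, 81.0 and 74.7 TPM under LPS and 38.7, 40.0 and 43.4 TPM in vehicle (log2 change 0.96, SE 0.0699, adjusted p = 2.71e-09). Every LPS library there was far above every vehicle library. In Setd1aDel cells at 16 h its log2 change of 0.21 was 0.16 without replicate 2 of the vehicle libraries and 0.15 without replicate 1 of the LPS libraries, and was then not called. Psmd9 fell in control marrow-derived cells (log2 change -0.64, SE 0.0946, adjusted p = 1.05e-05), where the scaled log2 change of -0.13 was not called. Psmd5 fell in control marrow-derived cells, with a log2 change of -0.39, and reversed to a change of 0.12 with scaling; it fell in wild-type cells at 16 h with a log2 change of -0.70.

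As deposited, the chaperones of 20S assembly went the other way from most of the core they build. All 4 Psmg genes fell under LPS in the control or wild-type cells of all 3 experiments as deposited, where 41.8% of all genes did. With scaling 2, 2 and 1 of the 4 fell in the marrow-derived, 16 h and 6 h cells. Only Psmg2 then fell in all 3, where 20.3% of all genes did. Psmg2, which pairs with Psmg1 to start the alpha ring, had 5.29, 6.26 and 5.71 TPM under LPS and 13.1, 14.3 and 13.2 TPM in vehicle in control marrow-derived cells (log2 change -1.10, SE 0.0824, adjusted p = 2.89e-09). In wild-type cells it had 23.9, 23.3 and 25.8 TPM under LPS and 45.5, 45.4 and 41.8 TPM in vehicle at 16 h (log2 change -0.84, SE 0.0505, adjusted p = 2.45e-10). It was lower in every LPS library than in every vehicle library, and it was the 1 member that fell in all 6 LPS comparisons on both scales. Psmg1 had 4.37, 3.78 and 3.75 TPM under LPS and 8.17, 8.97 and 8.25 TPM in vehicle in control marrow-derived cells (log2 change -0.93, SE 0.0836, adjusted p = 2.94e-08). Psmg1 fell in all 6 LPS comparisons as deposited; its scaled log2 change was 0.04 in Setd1aDel cells at 16 h.

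Psme2, the PA28 beta subunit, had the highest log2 change of any member in control and wild-type cells in each experiment with LPS and vehicle. It had 870.1, 871 and 877 TPM under LPS and 166, 158 and 160.0 TPM in vehicle in control marrow-derived cells (log2 change 2.43, SE 0.0282, adjusted p = 2.12e-19). Psme1, its partner in the ring, had 305, 302 and 312 TPM under LPS and 112, 112 and 112 TPM in vehicle (log2 change 1.44, SE 0.0406, adjusted p = 1.23e-14). Both genes had tight groups that did not overlap, although the change of Psme1 was below that of Psma6. At 16 h in wild-type cells Psme2 had 291, 294 and 289 TPM under LPS and 126, 127 and 132 TPM in vehicle (log2 change 1.18, SE 0.0369, adjusted p = 6.98e-14). Psme1 rose less there (log2 change 0.67, SE 0.044, adjusted p = 7.28e-10), below Psmd8, Psma6 and Psmd10. Psme2 in wild-type RAW264.7 cells had 355, 362 and 352 TPM under LPS and 106, 98.9 and 108 TPM in vehicle at 6 h (log2 change 1.77, SE 0.0431, adjusted p = 4.84e-18). Psme1 had 232, 237 and 241 TPM under LPS and 90.1, 84.4 and 88.3 TPM in vehicle at 6 h (log2 change 1.42, SE 0.053, adjusted p = 4.48e-15). Both were well above vehicle in every LPS library. Psme2b is a copy of Psme2 that is identical at 789 of 794 aligned transcript bases (99.4%), so its reads may have been split with Psme2 and its values are uncertain. Psmc3ip, which the symbol rule takes in although it acts in meiotic recombination and not in the proteasome, fell in RAW264.7 cells: in wild-type cells at 6 h it had 11.7, 11.7 and 12.9 TPM under LPS and 33.8, 34.5 and 37.0 TPM in vehicle (log2 change -1.46, SE 0.134, adjusted p = 6.78e-09).

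**Figure D2:**
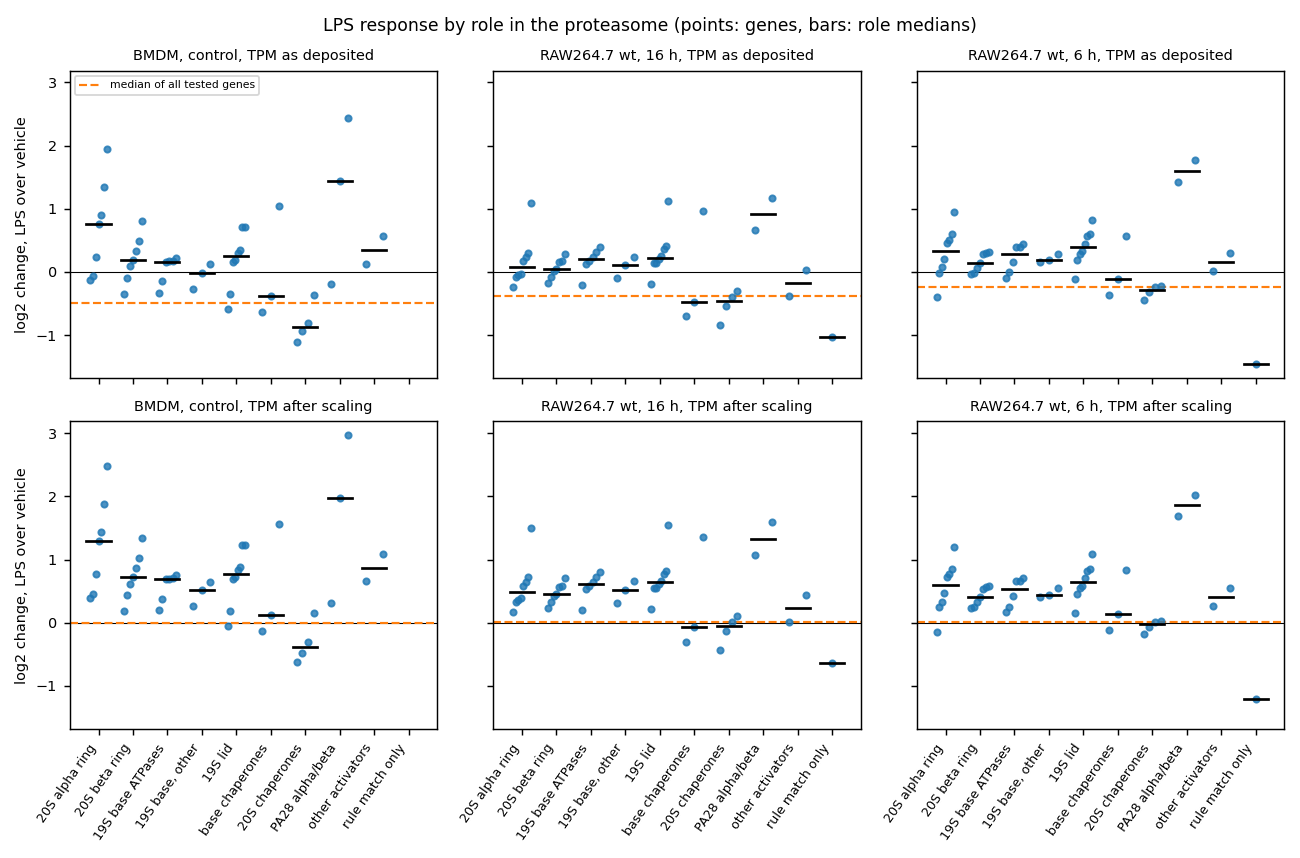
Log2 change of log2(TPM + 1), LPS over vehicle, of each member by role (points), in control marrow-derived macrophages (BMDM) and wild-type RAW264.7 cells at 16 h and 6 h, as deposited (upper panels) and with scaling (lower panels); short lines are role medians and the dashed line the median of all tested genes. As deposited the PA28 genes reach 2.43 for Psme2 and the 20S chaperones lie below 0, down to -1.10 for Psmg2. With scaling the chaperones lie higher, with Psmg4 at -0.31 in control marrow-derived cells (not called). Psmg2 was still called lower in each of these comparisons.

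Across all 6 LPS comparisons, which share no library, 17 of the 42 members tested throughout rose, or 40.5%, where 7.76% of all genes rose in all 6: Psma2, Psma5, Psma6, Psmb4, Psmb6, Psmb7, Psmc2, Psmc5, Psmc6, Psmd3, Psmd6, Psmd7, Psmd10, Psmd11, Psmd12, Psmd14 and Psme2. With scaling 32 rose in all 6, or 76.2%, where 1576 of all 8283 genes did. Psmd14 in this group is the deubiquitinase of the lid and Psmb7 the trypsin-like beta subunit. Genes outside the symbol rule are given as deposited for control marrow-derived cells, where the median gene had a log2 change of -0.49. The shares of all genes that rose and fell there are given above. Among other proteasome genes 4 of 9 rose and 3 fell, and among genes of proteasome transcriptional control 3 of 8 rose and 5 fell. Of the ubiquitin genes 1 of 4 rose and 3 fell. Of the genes of ubiquitin activation and shuttling 6 of 13 rose and 5 fell. All 3 immunoproteasome subunits rose there, with a median log2 change of 1.87, as did 6 of 6 genes of class I peptide supply (median 2.37). The macrophage marker sum also moved with LPS in these cells, at 26394 to 28247 TPM under LPS and 39336 to 40246 TPM in vehicle, and S100a8, the 1 of 8 neutrophil markers listed, was at 147 to 155 TPM under LPS and 37.6 to 41.9 TPM in vehicle; their part in the result was not tested. The sum in wild-type RAW264.7 cells was 5010.3 to 5373 TPM under LPS and 3011 to 3483 TPM in vehicle at 16 h, and 8533 to 8689 TPM under LPS and 9789 to 10106 TPM in vehicle at 6 h, so it moved in opposite directions in these experiments.

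**Figure D3:**
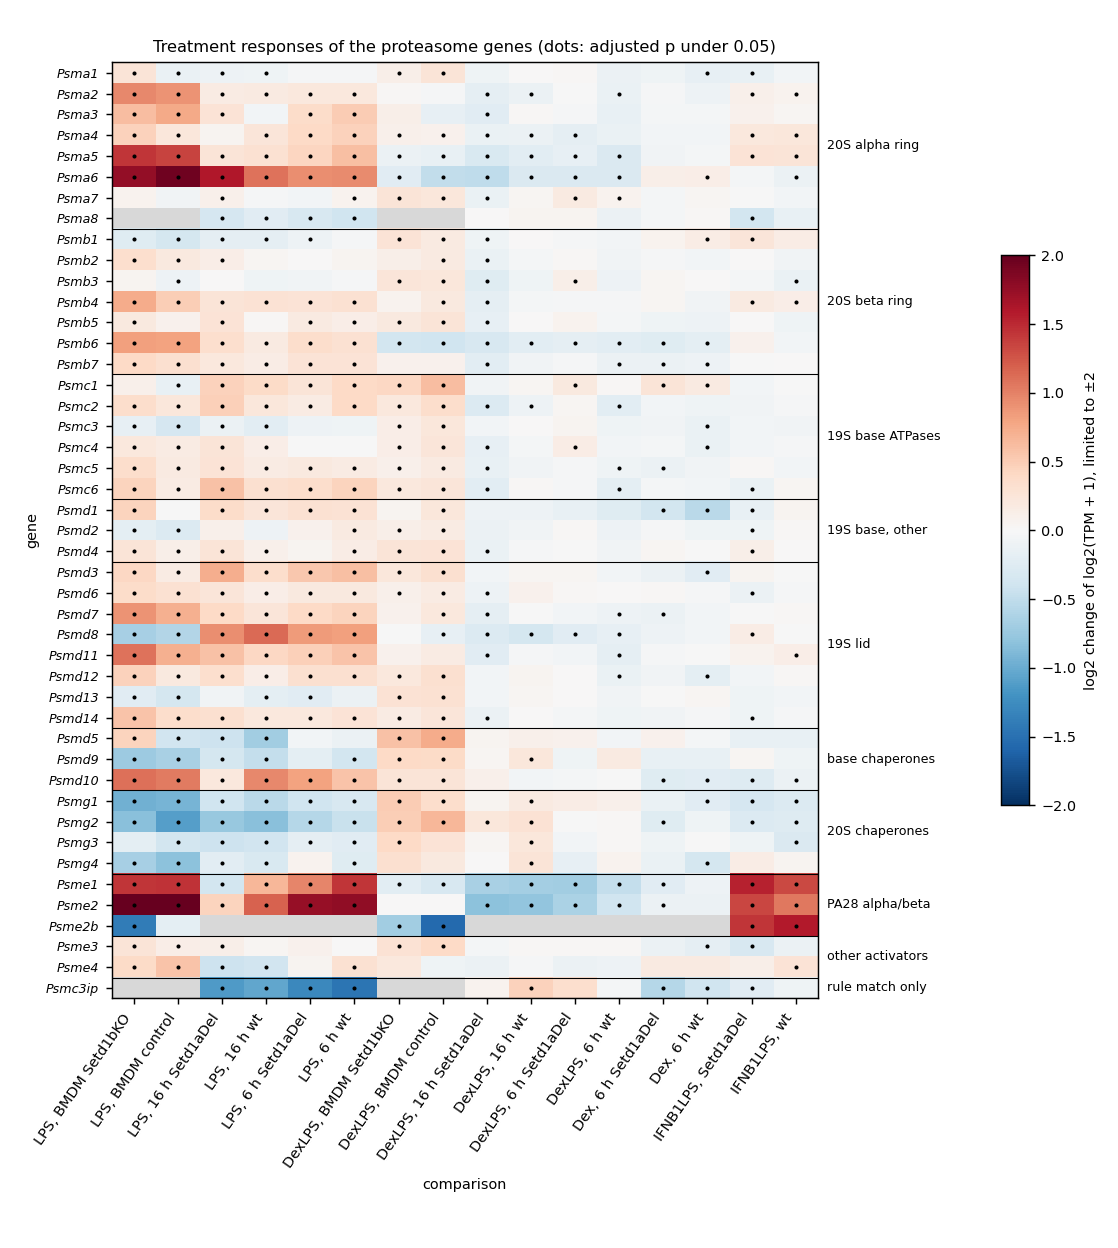
Log2 change of log2(TPM + 1) of each member (rows, by role) in each treatment comparison (columns) as a colour scale, with dots for adjusted p under 0.05 in limma and grey for members not tested; colours stop at ±2. LPS columns are mostly positive for core and lid subunits, and the Dex with LPS columns are negative for Psme1 throughout.

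With Dex and LPS against LPS alone Psma5, Psma6, Psmb6 and Psme1 fell in all 6 comparisons, which were 4 of 42 members or 9.52%, where 2.87% of all genes fell in all 6. With scaling Psmd8 and Psme2 did so as well, which made 6 of 42 or 14.3%, where 4.72% of all genes did. No member rose in all 6 on either scale (all genes 3.51% as deposited and 1.35% with scaling). In the libraries labelled Setd1bKO 26 of 43 members rose and 5 fell (all genes 39.2% and 13.5%), and with scaling 4 rose and 8 fell (all genes 15.3% and 23.8%). In control marrow-derived cells 29 rose and 6 fell (all genes 44.8% and 15.2%), but with scaling 4 rose and 11 fell (all genes 20.6% and 26.8%), so the balance of calls there turned with the scale.

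In RAW264.7 cells at 16 h 25 of 44 members fell and 1 rose in Setd1aDel cells (all genes 14.9% and 29.8%), and 9 fell and 6 rose in wild-type cells (all genes 12.3% and 35.2%). With scaling 33 fell and 1 rose in Setd1aDel cells (all genes 21.6% and 22.6%), and 27 fell and 2 rose in wild-type cells (all genes 23.3% and 19.8%). At 6 h 7 fell and 4 rose in Setd1aDel cells (all genes 10.7% and 22.1%) and 14 fell and 1 rose in wild-type cells (all genes 10.6% and 14.7%). With scaling 11 fell and 2 rose in Setd1aDel cells (all genes 15.8% and 16.1%), and 21 fell and none rose in wild-type cells (all genes 13.9% and 11.1%). The authors' deposited results for Dex under LPS are quoted without shares of all genes. At 16 h 33 members were lower and 1 higher in Setd1aDel cells, and 27 lower and 2 higher in wild-type cells. At 6 h 11 were lower and 2 higher in Setd1aDel cells, and 24 lower and none higher in wild-type cells. In marrow-derived cells 8 were lower and 4 higher in libraries labelled Setd1bKO, and 11 lower and 4 higher in control libraries.

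Psme1 was lower with Dex in every comparison. With Dex and LPS it had 256, 239 and 242 TPM in control marrow-derived cells, against the LPS levels given above (log2 change -0.32, SE 0.0406, adjusted p = 8.72e-06). In wild-type RAW264.7 cells at 16 h it had 119, 124 and 118 TPM with Dex and LPS and 195, 189 and 198 TPM with LPS (log2 change -0.69, SE 0.044, adjusted p = 7.11e-09). The Dex libraries overlapped the vehicle libraries, at 119, 125 and 120.5 TPM, and every LPS library was higher. At 6 h wild-type cells had 158, 177 and 177 TPM with Dex and LPS and 232, 237 and 241 TPM with LPS (log2 change -0.47, SE 0.053, adjusted p = 1.36e-06). Psme2 fell in all 4 RAW264.7 comparisons and in wild-type cells at 16 h had 171, 172 and 159.8 TPM with Dex and LPS and 291, 294 and 289 TPM with LPS (log2 change -0.79, SE 0.0369, adjusted p = 1.5e-10).

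Psma6 had 329, 326 and 310.5 TPM with Dex and LPS and 456, 459 and 445 TPM with LPS in control marrow-derived cells (log2 change -0.49, SE 0.0468, adjusted p = 3.54e-07). All Dex libraries were lower than all LPS libraries and still far above vehicle. In Setd1aDel cells at 16 h Psma6 had 472, 468 and 463 TPM with Dex and LPS and 711, 655 and 638 TPM with LPS (log2 change -0.51, SE 0.0402, adjusted p = 6.07e-08). Psmb6 had 323, 315 and 329 TPM with Dex and LPS and 419.6, 421 and 437 TPM with LPS in control marrow-derived cells (log2 change -0.40, SE 0.0306, adjusted p = 2.93e-08). The Psma5 change was smaller, with log2 changes of -0.31 to -0.12 over the 6 comparisons. Without replicate 2 of the control Dex and LPS libraries its change in control cells was -0.11 and was not called, and in libraries labelled Setd1bKO leaving out each library in turn gave -0.16 to -0.08, not called without replicate 2 or 3 of the Dex and LPS libraries or replicate 1 or 3 of the LPS libraries.

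Some members rose with Dex under LPS. In control marrow-derived cells Psmd5, a chaperone of the base, had 28.3, 27.9 and 27.6 TPM with Dex and LPS and 15.8, 16.1 and 17.2 TPM with LPS (log2 change 0.74, SE 0.0595, adjusted p = 5.76e-08). Psmc1, an ATPase, had a log2 change of 0.62, and Psmg2 had 9.63, 10.3 and 9.05 TPM with Dex and LPS and 5.29, 6.26 and 5.71 TPM with LPS (log2 change 0.66, SE 0.0824, adjusted p = 7.07e-06). Each of the 3 was higher in every Dex library, and each kept its direction with scaling (0.53, 0.40 and 0.47). At 16 h in wild-type RAW264.7 cells all 4 Psmg genes rose, with a median log2 change of 0.24, where the median of all genes was 0.09. With scaling 1 of the 4 rose, and the shares of all genes that rose there are given above. Macrophage markers summed to 30094 to 31684 TPM with Dex and LPS and 26394 to 28247 TPM with LPS in control marrow-derived cells, and S100a8 was at 273 to 303 TPM with Dex and LPS and 147 to 155 TPM with LPS; their part in these results was not tested.

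With Dex alone, given for 6 h without LPS, the share of members that fell was near that of all genes. In Setd1aDel cells 1 of 44 rose and 10 fell (all genes 12.0% and 18.3%), and in wild-type cells 3 rose and 13 fell (all genes 12.0% and 24.8%). With scaling 2 rose and 9 fell in Setd1aDel cells (all genes 13.3% and 17.1%), and 4 rose and 8 fell in wild-type cells (all genes 15.8% and 19.6%). Psmd1, the base scaffold that holds the ubiquitin receptor Adrm1, had 154, 160.0 and 179.9 TPM with Dex and 223, 252 and 244 TPM in vehicle in wild-type cells (log2 change -0.54, SE 0.0982, adjusted p = 0.000233). Its groups did not overlap although the Dex libraries spread. Psmd1 also fell in Setd1aDel cells, with a log2 change of -0.36, but without replicate 2 of the Setd1aDel Dex libraries the change was -0.29 and was not called. Psmc1 had 131, 136 and 143 TPM with Dex and 118, 122 and 119 TPM in vehicle in wild-type cells (log2 change 0.19, SE 0.0491, adjusted p = 0.00534), and all its Dex libraries were higher. Psmb6 had log2 changes of -0.24 in Setd1aDel cells and -0.20 in wild-type cells, both called.

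Interferon beta added to LPS raised the PA28 genes more than any other members. All 3 PA28 entries rose in both genotypes, where 1 of the 3 is the uncertain copy Psme2b. In Setd1aDel cells the log2 changes were 1.54 for Psme1, 1.33 for Psme2 and 1.43 for Psme2b. Psme1 had 335, 329 and 326 TPM with IFNB1 and LPS and 139, 127 and 131 TPM with LPS in wild-type cells (log2 change 1.31, SE 0.0415, adjusted p = 2.19e-09). Psme2 had 402, 439.7 and 462 TPM with IFNB1 and LPS and 214, 204 and 205 TPM with LPS (log2 change 1.06, SE 0.0494, adjusted p = 4.41e-08). Every library with IFNB1 was well above every library with LPS alone. Psme2b, with the uncertainty named above, had 17.9, 20.9 and 17.7 TPM with IFNB1 and LPS and 5.40, 5.30 and 6.00 TPM with LPS (log2 change 1.59, SE 0.154, adjusted p = 1.84e-05).

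The other members moved little under IFNB1. In Setd1aDel cells 10 of 45 members rose and 12 fell (all genes 10.5% and 43.6%), and in wild-type cells 9 rose and 6 fell (all genes 9.50% and 23.5%). With scaling 30 rose and 3 fell in Setd1aDel cells (all genes 21.9% and 20.0%), and 14 rose and 2 fell in wild-type cells (all genes 14.5% and 12.5%), so the balance of directions depended on the scale. Besides PA28, Psma2, Psma4, Psma5 and Psmb4 rose in both genotypes, which made 7 of 45 members or 15.6%, where 7.20% of all genes did. With scaling Psmc1, Psmd2, Psmd7, Psmd11 and Psme4 did so as well, which made 12 of 45 or 26.7%, where 11.4% of all genes did. The authors' deposited results, quoted without shares of all genes, had 30 members higher and none lower in Setd1aDel cells. In wild-type cells they had 15 higher and 2 lower. Psma4, an alpha subunit, had 642, 661 and 642 TPM with IFNB1 and LPS and 548, 558 and 562 TPM with LPS in wild-type cells (log2 change 0.22, SE 0.0221, adjusted p = 2.41e-05), and its groups did not overlap. Psmg1 had 56.8, 63.7 and 60.0 TPM with IFNB1 and LPS and 76.3, 70.5 and 71.2 TPM with LPS (log2 change -0.27, SE 0.0535, adjusted p = 0.00292). It was the 1 member that fell in both genotypes on both scales. Among genes outside the rule, 3 of 3 immunoproteasome subunits and 6 of 6 genes of class I peptide supply rose in each genotype.

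**Figure D4:**
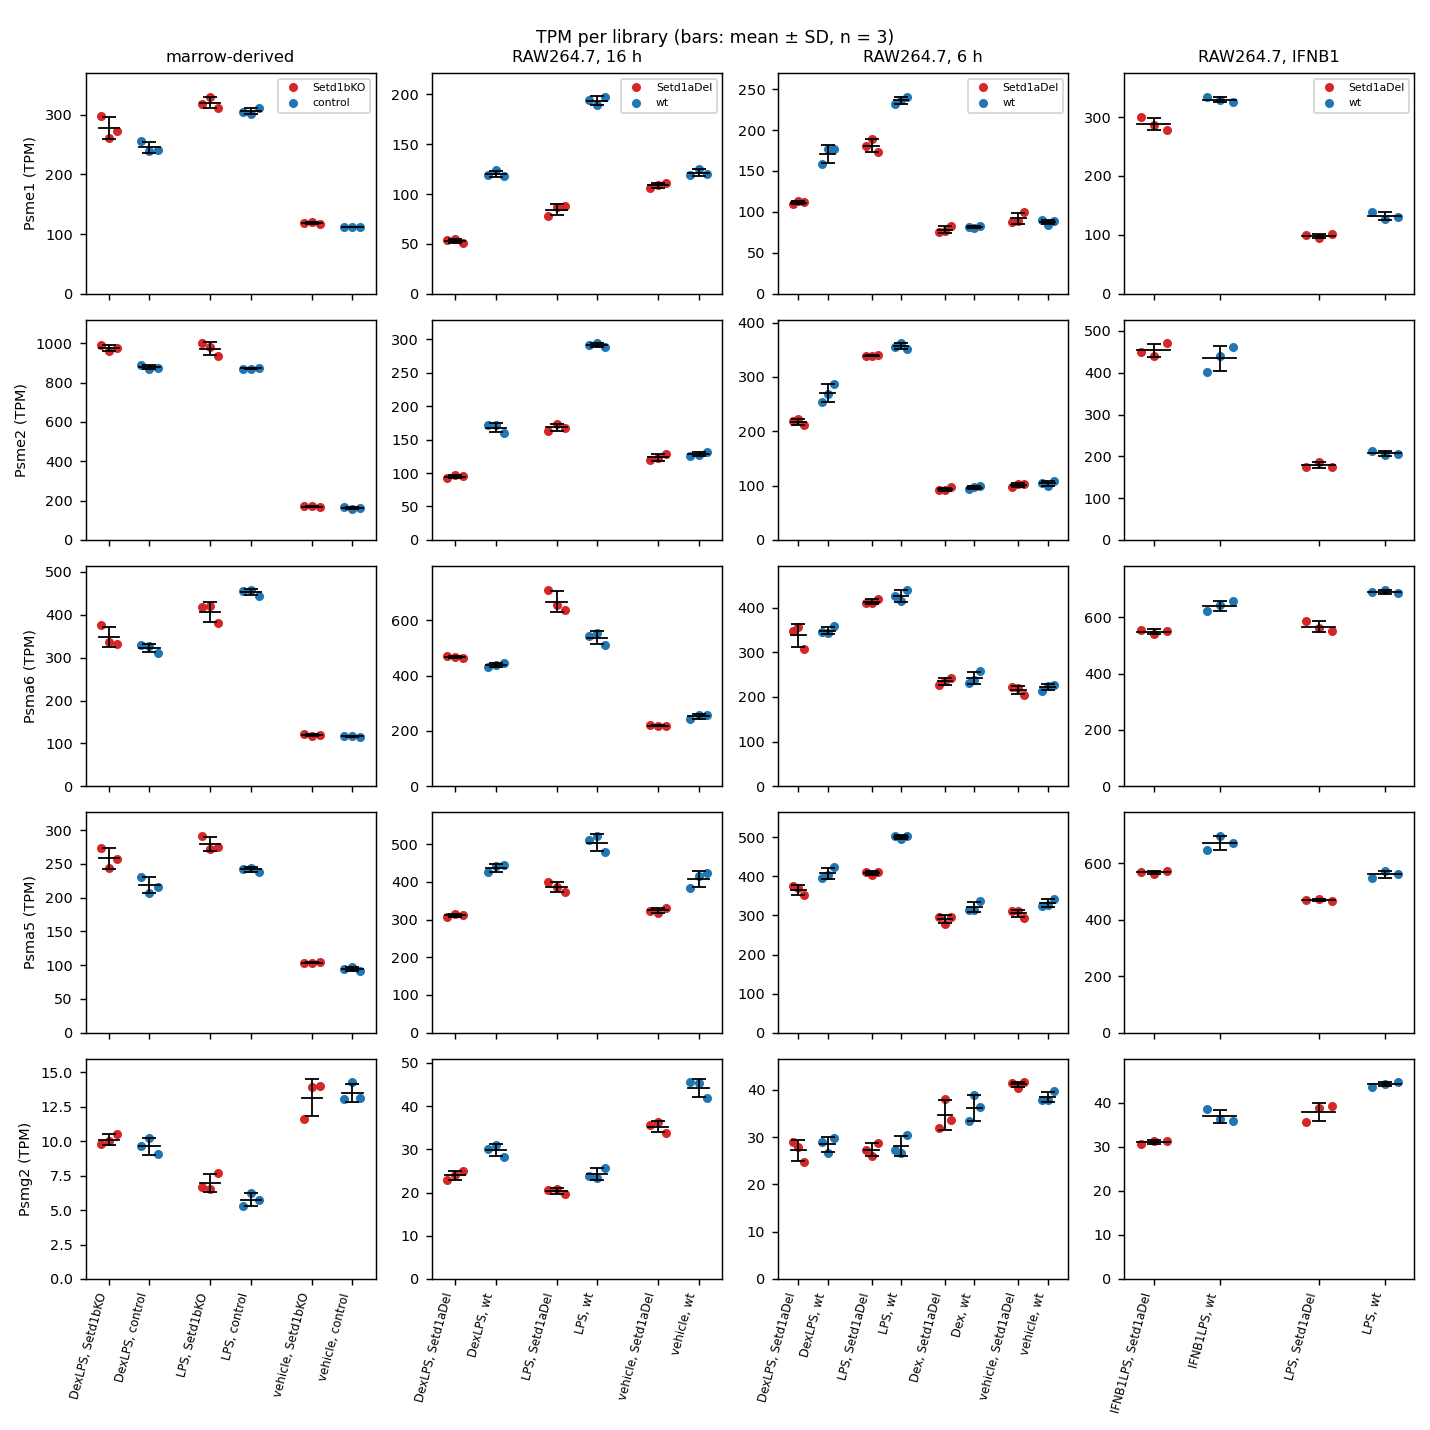
TPM of Psme1, Psme2, Psma6, Psma5 and Psmg2 in each library (points) of the 4 experiments by group, with lines for the mean and SD of 3 libraries. Psme1 in Setd1aDel cells at 16 h under LPS lies between 77.6 and 87.9 TPM, below its own vehicle libraries at 106 to 111 TPM, while in wild-type cells the LPS libraries lie above vehicle.

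Deletion of 1 copy of Setd1a in RAW264.7 cells went with lower levels of most members at 16 h. In vehicle 39 of 44 fell and 1 rose (all genes 32.9% and 15.3%), under LPS 35 fell and 1 rose (all genes 42.4% and 17.5%), and with Dex and LPS 42 fell and none rose (all genes 47.6% and 17.0%). With scaling 36, 21 and 30 fell and 1, 3 and 3 rose, where 21.0%, 29.9% and 30.1% of all genes fell and 22.0%, 26.7% and 30.4% rose. The median member had log2 changes of -0.28, -0.21 and -0.31 as deposited. In vehicle the falls covered 7 of 8 alpha subunits, 7 of 7 beta subunits, 6 of 6 ATPases, 7 of 8 lid subunits and 4 of 4 Psmg genes.

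In vehicle at 16 h the fall was led by the alpha subunit Psma3, which had 257, 252 and 239 TPM in Setd1aDel cells and 430.2, 345 and 360.0 TPM in wild-type cells (log2 change -0.59, SE 0.0708, adjusted p = 6.25e-06). The wild-type libraries spread, but all lay above all Setd1aDel libraries. Psmg1 had 35.6, 35.7 and 32.5 TPM in Setd1aDel cells and 48.2, 54.8 and 53.2 TPM in wild-type cells (log2 change -0.57, SE 0.0624, adjusted p = 2.35e-06). Psmd2, a ubiquitin receptor of the base, had a log2 change of -0.42, and the base chaperone Psmd9 one of -0.40. The 1 member that rose was Psmd10, with 56.5, 50.1 and 55.1 TPM in Setd1aDel cells and 38.7, 40.0 and 43.4 TPM in wild-type cells (log2 change 0.40, SE 0.0699, adjusted p = 0.000264). In vehicle at 6 h Psmd10 was not higher, with 36.6, 36.1 and 34.6 TPM in Setd1aDel and 41.9, 37.6 and 54.2 TPM in wild-type cells.

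Under LPS at 16 h the PA28 genes showed the largest falls. Psme1 had 77.6, 87.3 and 87.9 TPM in Setd1aDel cells and 195, 189 and 198 TPM in wild-type cells (log2 change -1.19, SE 0.044, adjusted p = 2.99e-12). Psme2 had 163, 173 and 168 TPM in Setd1aDel cells and 291, 294 and 289 TPM in wild-type cells (log2 change -0.79, SE 0.0369, adjusted p = 5.28e-11). Every Setd1aDel library was far below every wild-type library. With Dex and LPS the falls were alike in size, with log2 changes of -1.17 and -0.82. Psma6 ran against the rest, with 711, 655 and 638 TPM in Setd1aDel cells and 545, 555 and 512 TPM in wild-type cells (log2 change 0.31, SE 0.0402, adjusted p = 7.12e-06), and was the 1 member that rose as deposited. Psma6 did not rise in the other experiments under LPS. In the IFNB1 experiment it had 588, 561 and 551 TPM in Setd1aDel and 689.5, 698 and 685 TPM in wild-type cells. At 6 h it had 409, 411 and 419 TPM in Setd1aDel and 426, 414 and 440 TPM in wild-type cells, and these groups overlapped.

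Related genes outside the rule fell in the same libraries: under LPS at 16 h all 3 immunoproteasome subunits (median log2 change -1.57) and 6 of 6 genes of class I peptide supply (median -1.41) were lower in Setd1aDel cells. Psmb8, an immunoproteasome subunit, had 61.3, 64.3 and 71.2 TPM in Setd1aDel cells and 128, 134 and 135 TPM in wild-type cells. The macrophage marker sum differed as well, at 23496 to 24617 TPM in Setd1aDel and 3011 to 3483 TPM in wild-type cells in vehicle, and at 11739.6 to 13510.3 TPM in Setd1aDel and 5010.3 to 5373 TPM in wild-type cells under LPS; S100a8 was at 98.5 to 106 TPM in Setd1aDel and 4.91 to 5.45 TPM in wild-type cells under LPS. Their part in the result was not tested.

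At 6 h fewer members than at 16 h were called between the genotypes, and the difference between the experiments was not tested. In vehicle 10 of 44 fell and 1 rose (all genes 15.6% and 6.58%), under LPS 17 fell and 1 rose (all genes 12.3% and 9.19%), with Dex and LPS 10 fell and 2 rose (all genes 13.1% and 13.1%), and with Dex 6 fell and none rose (all genes 7.37% and 6.20%). With scaling 3 fell and 3 rose in vehicle (all genes 7.98% and 10.9%), 14 fell and 1 rose under LPS (all genes 10.7% and 12.2%), 10 fell and 2 rose with Dex and LPS (all genes 13.2% and 14.0%), and 3 fell and none rose with Dex (all genes 5.04% and 8.22%). The balance towards lower levels in vehicle was thus not kept with scaling. Psme1 had 181, 189 and 173 TPM in Setd1aDel cells and 232, 237 and 241 TPM in wild-type cells under LPS (log2 change -0.39, SE 0.053, adjusted p = 2.39e-05). With Dex and LPS it had 109, 113 and 112 TPM in Setd1aDel cells and 158, 177 and 177 TPM in wild-type cells (log2 change -0.61, SE 0.053, adjusted p = 9.39e-08). The genotypes did not overlap under either treatment. Psmg4 fell in vehicle, with a log2 change of -0.44, and Psma7 under LPS, with one of -0.27. Psmd8 rose slightly under LPS, with a log2 change of 0.17, whereas at 16 h under LPS it was lower in every Setd1aDel library than in every wild-type library. The macrophage marker sum under LPS was 7632 to 8103 TPM in Setd1aDel and 8533 to 8689 TPM in wild-type cells, and S100a8 was at 46.2 to 54.0 TPM in Setd1aDel and 73.3 to 79.9 TPM in wild-type cells; their part was not tested.

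In the IFNB1 experiment 25 of 45 members fell and 1 rose in Setd1aDel cells under LPS (all genes 24.9% and 17.7%), and 28 fell and 1 rose with IFNB1 and LPS (all genes 38.4% and 15.8%). With scaling 20 fell and 2 rose under LPS (all genes 20.6% and 21.1%), but 7 fell and 5 rose with IFNB1 and LPS (all genes 21.7% and 24.0%). Psme1 had 99.4, 94.0 and 101 TPM in Setd1aDel cells and 139, 127 and 131 TPM in wild-type cells under LPS (log2 change -0.42, SE 0.0415, adjusted p = 9.98e-06). Psmg1 had 57.5, 57.6 and 54.1 TPM in Setd1aDel cells and 76.3, 70.5 and 71.2 TPM in wild-type cells (log2 change -0.36, SE 0.0535, adjusted p = 0.000253). Neither gene's groups overlapped. Psmd8 rose with IFNB1 and LPS (log2 change 0.38, SE 0.0274, adjusted p = 7.92e-07), as it did under LPS. The 16 h experiment went the other way. Under LPS there Psmd8 had 334, 328 and 320 TPM in Setd1aDel and 386, 392 and 369 TPM in wild-type cells. The macrophage marker sum was 11284 to 11474 TPM in Setd1aDel and 7213 to 7316 TPM in wild-type cells under LPS, and its part was not tested.

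**Figure D5:**
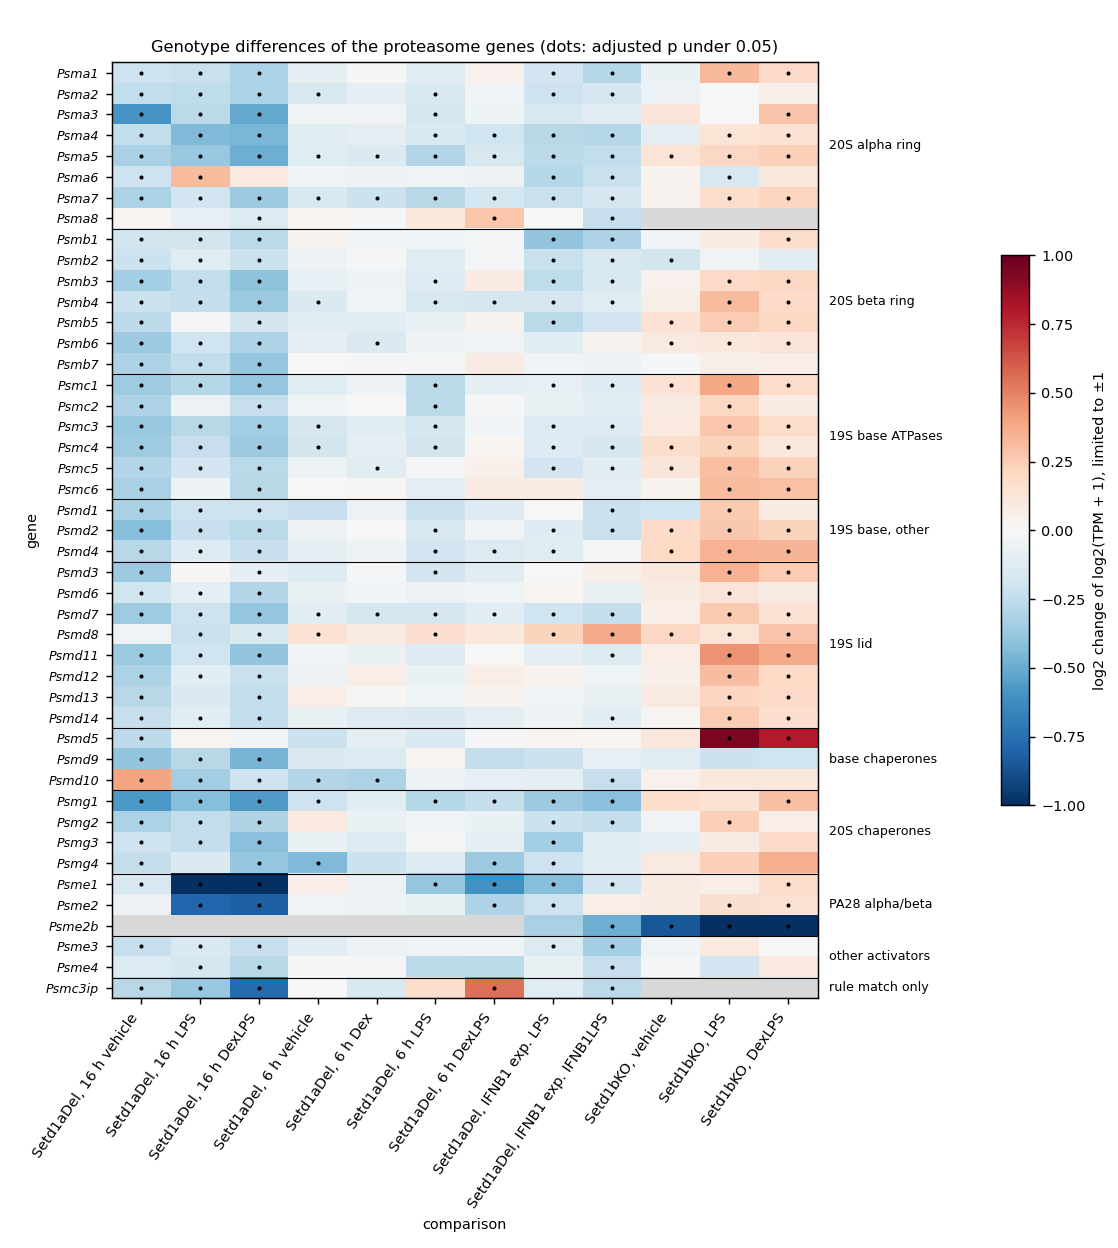
Log2 change of log2(TPM + 1) of each member (rows, by role) in each genotype comparison (columns), Setd1aDel over wild type and Setd1bKO over control, as a colour scale with dots for adjusted p under 0.05 in limma and grey for members not tested; colours stop at ±1. The 16 h Setd1aDel columns are mostly negative, with Psme1 at -1.19 under LPS, and the Setd1bKO columns are mostly positive under LPS.

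The 3 RAW264.7 experiments share no library, so the difference between the genotypes under LPS can be set side by side. A trait of the Setd1aDel line and the deletion itself cannot be told apart here. Of the 44 members tested in all 3, 14 fell in each, or 31.8%, where 4.51% of all genes did: Psma2, Psma4, Psma5, Psma7, Psmb3, Psmb4, Psmc1, Psmc3, Psmc4, Psmd2, Psmd4, Psmd7, Psme1 and Psmg1. With scaling 8 of them did, namely Psma2, Psma5, Psmb4, Psmc3, Psmc4, Psmd7, Psme1 and Psmg1, or 18.2%, where 3.16% of all genes did, and no member rose in all 3 on either scale (all genes 2.81% as deposited and 4.23% with scaling). Psma5 had log2 changes of -0.38 at 16 h, -0.29 at 6 h and -0.26 in the IFNB1 experiment. Psme1 had log2 changes of -1.19, -0.39 and -0.42 in the same order, and Psmg1 of -0.43, -0.29 and -0.36.

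In marrow-derived macrophages the libraries labelled Setd1bKO had higher levels of base and lid subunits under LPS. In vehicle 9 of 43 members rose and 2 fell (all genes 9.89% and 15.4%), under LPS 28 rose and 2 fell (all genes 29.0% and 12.4%), and with Dex and LPS 28 rose and 1 fell (all genes 23.5% and 11.5%). In vehicle 4 to 6 rose when 1 of the 6 vehicle libraries was left out. With scaling 6, 13 and 8 rose and 1, 4 and 3 fell, where 11.1%, 15.9% and 12.9% of all genes rose and 14.4%, 19.9% and 16.5% fell, so most of the rises under treatment were no longer called once the shift of the median gene was removed. Under LPS 6 of 6 ATPases, 8 of 8 lid subunits and 3 of 3 other base subunits rose, and with scaling 4 of the ATPases and 4 of the lid subunits did.

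Psmd5 showed the largest rise. It had 30.6, 34.1 and 32.5 TPM in libraries labelled Setd1bKO and 15.8, 16.1 and 17.2 TPM in control libraries under LPS (log2 change 0.94, SE 0.0595, adjusted p = 4.98e-09). With Dex and LPS it had 45.8, 52.2 and 49.1 TPM in libraries labelled Setd1bKO and 28.3, 27.9 and 27.6 TPM in control libraries (log2 change 0.79, SE 0.0595, adjusted p = 4.73e-08). The groups stood well apart in both. Psmd4, a ubiquitin receptor of the base, had 82.2, 81.2 and 80.7 TPM in libraries labelled Setd1bKO and 64.7, 61.5 and 64.8 TPM in control libraries under LPS (log2 change 0.35, SE 0.0438, adjusted p = 1.18e-05). Psmd4, Psmd2 and the ATPase Psmc5 rose in all 3 treatments on both scales, 3 of 43 members, where 3.28% of all genes rose in all 3 with scaling. The Psmc5 rise in vehicle, a log2 change of 0.12, was not called without replicate 1 or 3 of either group. Psmd11 had log2 changes of 0.45 under LPS and 0.38 with Dex and LPS, both called.

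Psme2b, uncertain because of its likeness to Psme2, was the 1 member that fell in all 3 treatments. It had 1.75, 2.32 and 2.38 TPM in libraries labelled Setd1bKO and 10.4, 14.5 and 11.5 TPM in control libraries under LPS (log2 change -2.05, SE 0.16, adjusted p = 5.71e-08). In vehicle it had 8.40, 7.87 and 5.80 TPM in libraries labelled Setd1bKO and 12.9, 13.7 and 15.0 TPM in control libraries (log2 change -0.84, SE 0.16, adjusted p = 0.000996). No library of the first group reached the second. Psme2 itself rose under LPS (log2 change 0.16, SE 0.0282, adjusted p = 0.000377) and with Dex and LPS (log2 change 0.15), and neither change was called with scaling. The macrophage marker sum was 17930 to 18174 TPM in libraries labelled Setd1bKO and 26394 to 28247 TPM in control libraries under LPS, and 25273 to 26027 TPM in libraries labelled Setd1bKO and 39336 to 40246 TPM in control libraries in vehicle. The 1 of 6 dendritic cell markers listed, Itgax, was at 41.9 to 42.8 TPM in libraries labelled Setd1bKO and 59.6 to 64.6 TPM in control libraries under LPS; their part in the result was not tested.

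Differences of response between genotypes were tested as interaction terms. For LPS at 16 h 14 of 44 members had a more positive response in Setd1aDel than in wild-type cells and 5 a more negative one (all genes 13.1% and 20.3%; with scaling 19 and 5, where 1445 and 1701 of all 8964 genes did). Psme1 turned: in Setd1aDel cells it had 77.6, 87.3 and 87.9 TPM under LPS and 106, 109 and 111 TPM in vehicle (log2 change -0.37, SE 0.044, adjusted p = 1.07e-06; with scaling 0.07), and in wild-type cells 195, 189 and 198 TPM under LPS and 119, 125 and 120.5 TPM in vehicle. The difference of the responses was -1.04 on the log2 scale (SE 0.0622, adjusted p = 3.35e-09), and -1.01 with scaling. Psme2 rose in both, with a log2 change of 0.44 in Setd1aDel and 1.18 in wild-type cells (difference -0.73, adjusted p = 2.27e-08). Psma6 rose more in Setd1aDel cells, at 1.61 against 1.09 in wild-type cells (difference 0.52, adjusted p = 2.86e-06), and so did Psmd3, at 0.73 against 0.36. Psmd10 had 67.8, 61.5 and 58.5 TPM under LPS and 56.5, 50.1 and 55.1 TPM in vehicle in Setd1aDel cells, a smaller rise than in wild-type cells (difference -0.75, adjusted p = 2.29e-05). At 6 h its log2 change under LPS was 0.80 in Setd1aDel and 0.57 in wild-type cells, and that difference was not called.

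At 6 h the LPS response of 1 member differed between genotypes, and none differed in the other direction (all genes 2.63% more negative and 2.97% more positive). With scaling 4 members had a more negative and none a more positive response (all genes 3.64% and 2.12%). The member called as deposited was Psme1, with log2 changes of 0.97 in Setd1aDel and 1.42 in wild-type cells (difference -0.45, SE 0.0749, adjusted p = 0.000782). The response to Dex alone differed for none of 44 members in limma (all genes 0.189% and 0.100%; with scaling also none, all genes 0.100% and 0.134%), and 944 of all genes had an unadjusted p under 0.05. In the marrow-derived cells the LPS response of Psmd5 had opposite signs as deposited, 0.44 in libraries labelled Setd1bKO and -0.39 in control libraries (difference 0.83, adjusted p = 4.77e-06); with scaling both were positive, at 0.82 and 0.12. In that comparison 14 of 43 members had a more positive response and 2 a more negative one (all genes 16.4% and 5.43%), and with scaling 2 and 3 did (all genes 8.53% and 10.2%). For IFNB1, 3 of 45 members had a more positive response in Setd1aDel cells and 1 a more negative one (all genes 3.31% and 8.01%; with scaling 4 and none, all genes 5.69% and 2.87%). The Dex response under LPS was more positive for 2 of 43 members and more negative for none in libraries labelled Setd1bKO (all genes 2.69% and 3.53%; with scaling 1 and none, all genes 3.54% and 3.08%). In Setd1aDel cells at 16 h it was more positive for none and more negative for 9 of 44 (all genes 2.88% and 7.68%), but with scaling for none and 2 (all genes 5.71% and 5.30%), and for 4 to 11 as deposited when 1 library was left out. At 6 h it was more positive for 2 and more negative for 1 (all genes 3.25% and 2.04%), and with scaling for 2 and 1 as well (all genes 2.59% and 2.64%).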

How the data were processed

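The 72 RNA libraries of mouse macrophages fall into 24 groups of 3 by their labels. Per the submitters' processing notes the authors used Salmon 0.10.2, R 3.6.0, DESeq2 and GRCm38.p6. The deposited values used here are TPM, a unit that sums to 1000000 per library over all transcripts; the listed genes of a library sum to 837032 to 912839 TPM. For the IFNB1 experiment the header gives no unit, and TPM was inferred from the values. Read numbers are unknown, which leaves counting error out of reach. The authors also deposited log2 fold changes, p-values and adjusted p-values for adding Dex or IFNB1 to LPS, from which only member counts are quoted.

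A separate limma model (version 3.58.1; R 4.3.3, data.table version 1.17.8) was fitted to log2(TPM + 1) of each experiment, with a mean for every group and a trended prior. It covered genes that reached 1 TPM in 3 or more libraries. Calls needed a two-sided adjusted p (Benjamini-Hochberg within each of 36 comparisons) under 0.05. No count test was run, because the tables hold TPM. The scripts were tested on simulated data. Summaries and figures used Python 3.11.15, pandas 2.3.3, matplotlib 3.10.9 and Biopython 1.88.

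The members and lists were chosen with earlier results of these data known. Any member could be named, led by the highest and lowest called log2 changes of each comparison. Other settings tried were median-of-ratios scaling, no filter on low values, 0.1 in place of 1 added before the log, a fit of the compared groups alone, a replicate block and leaving out each library in turn. No pair of replicate libraries was identical, and their lowest Pearson correlation was 0.983. All sample columns were used.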

Additional observations from a re-analysis of the deposited data

Results flagged for a closer look

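For 22 responses of members described singly, the difference between genotypes passed limma's test of the interaction itself (adjusted p under 0.05). The values are differences on the log2 scale, Setd1aDel minus wild type or libraries labelled Setd1bKO minus control. The PA28 genes stood out in RAW264.7 cells. The LPS response of Psme1 differed by -1.04 at 16 h (adjusted p = 3.35e-09) and by -0.45 at 6 h (adjusted p = 0.000782), and that of Psme2 by -0.73 at 16 h (adjusted p = 2.27e-08). Their IFNB1 responses differed in the other direction, by 0.23 for Psme1 (adjusted p = 0.0332) and 0.27 for Psme2 (adjusted p = 0.0347). The Dex response of Psme2 under LPS differed by -0.24 at 6 h (adjusted p = 0.0282).

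At 16 h the LPS responses of the base chaperone Psmd10 (-0.75, adjusted p = 2.29e-05), the alpha subunits Psma6 (0.52, adjusted p = 2.86e-06) and Psma3 (0.32, adjusted p = 0.0219) and the lid subunit Psmd3 (0.37, adjusted p = 6.13e-06) also differed in limma. The Dex responses under LPS differed for Psma6 by -0.22 (adjusted p = 0.0225) and for the ATPase Psmc6 by -0.23 (adjusted p = 0.0074) at 16 h, and for the ATPases Psmc2 by 0.25 (adjusted p = 0.0363) and Psmc4 by 0.20 (adjusted p = 0.0241) at 6 h. Under IFNB1 the lid subunit Psmd8 differed by 0.15 (adjusted p = 0.031) and the base scaffold Psmd1 by -0.21 (adjusted p = 0.0429). With scaling the Psmd1 difference was -0.11 and was not called (limma adjusted p = 0.188).

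In the marrow-derived cells the LPS response differed for Psmd5 by 0.83 (adjusted p = 4.77e-06), for Psma1 by 0.39 (adjusted p = 2.73e-05), for Psma6 by -0.19 (adjusted p = 0.05, just under the threshold) and for Psme2b by -1.21 (adjusted p = 0.0012). The Dex response under LPS differed for Psme2b by 0.86 (adjusted p = 0.0335) and for Psma6 by 0.27 (adjusted p = 0.0224). The Psme2b log2 changes were -0.70 in libraries labelled Setd1bKO, where its levels were near the floor, and -1.56 in control libraries. With 0.1 in place of 1 added before the log, the Psme2b difference was 0.63 and not called (limma adjusted p = 0.317). The Psma6 difference was 0.31 with scaling and not called (limma adjusted p = 0.0693). Psma1, an alpha subunit, had 134, 124 and 129 TPM under LPS and 109, 106 and 109 TPM in vehicle in libraries labelled Setd1bKO, against 102, 103 and 103 TPM under LPS and 113, 117 and 109 TPM in vehicle in control libraries. Groups of 3 libraries are too small for a check of single outlying libraries.

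Of these 22 differences 12 lost the call when 1 library was left out. For Psma3 the difference was then 0.26 without wild-type LPS replicate 1 and 0.29 without Setd1aDel vehicle replicate 3, and for Psma6 at 16 h the Dex difference was -0.18 without wild-type LPS replicate 3. The others were Psma6 (both differences) and Psme2b (Dex) in marrow-derived cells, Psme2, Psmc2 and Psmc4 at 6 h, and Psme1, Psme2, Psmd8 and Psmd1 under IFNB1, each of which lost it without any 1 of several libraries.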

How the results depend on the processing

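The counts of members that rose or fell depended mostly on scaling: of 72 counts (36 comparisons, each direction), 40 moved by over 1.5 times with median-of-ratios scaling, 14 with a fit of the compared groups alone, 3 with no filter, 3 with a replicate block and 2 with a pseudocount of 0.1. With scaling the members lower under LPS were 5 in libraries labelled Setd1bKO (10 as deposited), 2 in control marrow-derived cells (14), 2 in Setd1aDel (13) and 4 in wild-type cells (13) at 16 h, and 3 in Setd1aDel (7) and 3 in wild-type cells (7) at 6 h. For Dex under LPS scaling gave 4 higher (26) and 8 lower (5) in libraries labelled Setd1bKO, 4 higher (29) and 11 lower (6) in control marrow-derived cells, 2 higher (6) and 27 lower (9) in wild-type cells at 16 h, 2 higher (4) and 11 lower (7) in Setd1aDel cells and 0 higher (1) in wild-type cells at 6 h. For Dex alone it gave 2 higher (1) in Setd1aDel and 8 lower (13) in wild-type cells. For IFNB1 it gave 30 higher (10) and 3 lower (12) in Setd1aDel and 14 higher (9) and 2 lower (6) in wild-type cells. For Setd1bKO over control it gave 1 lower (2) in vehicle, 13 higher (28) and 4 lower (2) under LPS, and 8 higher (28) and 3 lower (1) with Dex and LPS. For Setd1aDel over wild type it gave 3 higher (1) and 21 lower (35) under LPS and 3 higher (0) with Dex and LPS at 16 h, 3 higher (1) and 3 lower (10) in vehicle and 3 lower (6) with Dex at 6 h, and 2 higher (1) under LPS and 5 higher (1) and 7 lower (28) with IFNB1 and LPS in the IFNB1 experiment. Of the differences of response it left 2 more positive (14) for LPS and 1 (2) for Dex in the marrow-derived cells, 2 more negative (9) for Dex at 16 h, 4 more negative (1) for LPS at 6 h and 0 more negative (1) for IFNB1.

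Fitting the compared groups alone, with fewer libraries to estimate the spread, gave 17 higher (26) for Dex under LPS in libraries labelled Setd1bKO and 0 (2) for its difference, 1 higher (0) for Setd1aDel with Dex and LPS at 16 h and 5 (9) for the Dex difference there. At 6 h it gave 1 higher (4) in Setd1aDel and 0 higher (1) in wild-type cells for Dex under LPS and 6 lower (10) for Dex alone in Setd1aDel cells. For Setd1aDel over wild type at 6 h it gave 0 higher (1) and 6 lower (10) in vehicle, 1 higher (2) and 6 lower (10) with Dex and LPS, 2 lower (6) with Dex, and 0 and 0 (2 and 1) for the Dex difference under LPS. No filter and a pseudocount of 0.1 each left 1 (2) more negative LPS difference in marrow-derived cells; no filter left 1 (3) and 0 (1) IFNB1 differences, and the pseudocount 1 (2) Dex difference in marrow-derived cells.

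Replicate numbers did not pair the libraries: deviations of same-numbered libraries had median correlations of 0.00, -0.02, 0.01 and -0.01 in the marrow-derived, 16 h, 6 h and IFNB1 experiments. The replicate block gave 0 higher (1) for Dex under LPS in wild-type cells at 6 h, 2 (1) for the LPS difference at 6 h and 0 (1) for the IFNB1 difference, and moved no other count by over 1.5 times; of the named changes it ended the call of the IFNB1 differences of Psme2 (0.27, adjusted p = 0.0506 in limma) and Psmd1 (-0.21, adjusted p = 0.0652) and no other.

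Leaving out each library in turn moved 88 of 528 counts. The ranges were 4 to 6 higher and 1 to 3 lower for Setd1bKO over control in vehicle (9 and 2 with all libraries), 1 to 3 lower under LPS and 1 to 2 lower with Dex and LPS; 1 to 2 lower for the LPS and 0 to 2 higher for the Dex difference in those cells; 4 to 11 lower for the Dex difference at 16 h; 0 to 0 higher and 9 to 12 lower for Dex under LPS in wild-type cells at 6 h; 0 to 1 higher and 5 to 10 lower for Setd1aDel in vehicle at 6 h; 0 to 1 higher and 1 to 2 lower for the LPS and 0 to 3 higher and 0 to 2 lower for the Dex difference at 6 h; 3 to 7 lower for IFNB1 in wild-type cells; 1 to 2 higher for Setd1aDel with IFNB1 and LPS; and 0 to 3 higher and 0 to 3 lower for the IFNB1 difference.

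Of 216 named log2 changes 194 were called without each library in turn. With scaling 3 reversed, to 0.12 for Psmd5 under LPS in control marrow-derived cells, 0.037 for Psmg1 and 0.073 for Psme1 under LPS in Setd1aDel cells at 16 h, and none of these was called; 9 more were no longer called. Read depth is unknown, so its limit on low members such as Psmg1 in marrow-derived cells cannot be given.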
